A study of Saccharomyces cerevisiae with 4 samples.

Results

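The small-subunit cytosolic ribosomal protein genes of Saccharomyces cerevisiae encode the proteins of the small subunit of the ribosome. They were taken as the nuclear protein-coding genes of the RefSeq R64 gene table whose symbol is RPS, a number and, for duplicated genes, the letter A or B. The rule found 56 genes among 6002 nuclear protein-coding genes. They lie on 14 chromosomes and form 24 pairs of A and B copies and 8 single-copy genes. A gene was counted as having a peak when any base of a peak fell between 500 bp before its annotated start and its annotated end.

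A yeast strain with FLAG-tagged Acs2 (Acs2-FLAG) and an untagged strain grew at 28 °C in YPD, a rich medium, with 2% glucose, and were fixed with 1% formaldehyde at an optical density of 0.7 to 1.0. Each strain gave an immunoprecipitate with the FLAG M2 antibody and an input without antibody, so the 4 libraries form 4 groups of 1 library. The labels do not state the strain background or the promoter of the tagged gene. The Acs2-FLAG immunoprecipitate has a list of 912 peaks and the untagged immunoprecipitate a list of 34. With 1 library per group there is no replicate error and no test between strains. The values below describe these lists.

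Acs2 is an acetyl-CoA synthetase found in the cytosol and nucleus, and acetyl-CoA is the donor for histone acetylation. Ribosomal protein genes are among the most heavily transcribed genes of growing yeast. Their promoters are commonly bound by Rap1, Fhl1 and Ifh1, answer to TOR signalling and recruit the histone acetyltransferase Esa1. Many of these genes exist as a pair of copies whose proteins are nearly or fully identical, and many carry introns.

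Of the 56 small-subunit genes, 38 had an Acs2-FLAG peak (67.9%, exact Clopper-Pearson interval 54.0 to 79.7). Among all nuclear protein-coding genes the share was 20.6%, and among those no longer than the longest member (1214 bp) it was 24.2%. None of the 56 had an untagged peak (0%, upper exact bound 6.38%), beside 0.533% of all nuclear protein-coding genes. Large-subunit genes had an Acs2-FLAG peak at 57 of 76 (75.0%, interval 63.7 to 84.2) and an untagged peak at 0 of 76. Exact intervals treat genes as independent and do not cover a repeat of the library.

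**Figure D1:**
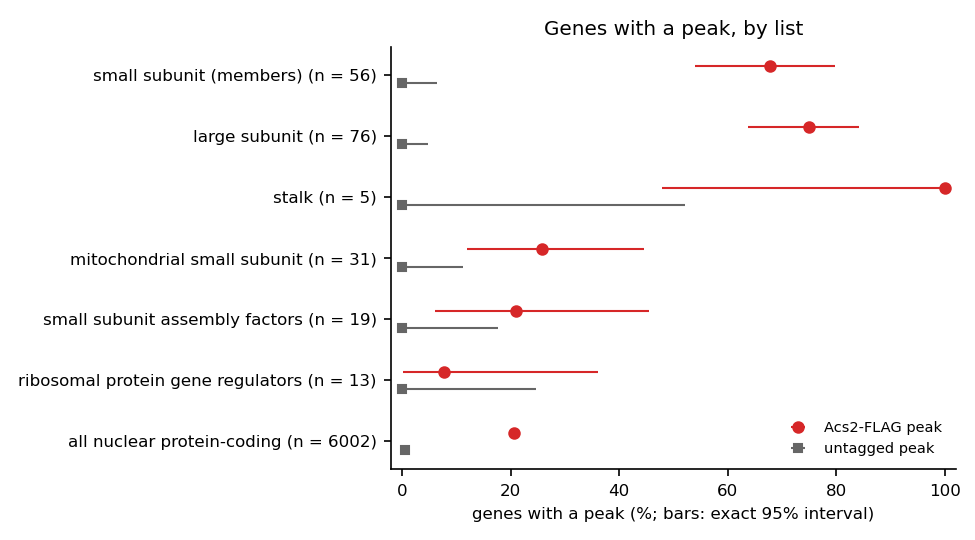
Share of genes with a peak, in percent, for the small-subunit genes, other ribosome-related gene lists and all nuclear protein-coding genes. Circles are the Acs2-FLAG list, squares the untagged list, and bars exact 95% intervals. The small subunit stands at 67.9% in the Acs2-FLAG list and 0% in the untagged list, beside 20.6% and 0.533% of all nuclear protein-coding genes.

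The peaks were weak. The fold enrichment, which is the authors' ratio of immunoprecipitate to local background at the summit (the highest base of the peak), had a median of 1.41 over the 38 genes, with quartiles of 1.31 and 1.61. It ran from 1.16, at RPS0B, to 2.05. A fold of at least 2 was reached by 3 of 56 members (5.36%), beside 7.68% of all nuclear protein-coding genes. A fold of at least 1.5 was reached by 12 of the 38 (31.6%), against 60.3% of the 1200 other protein-coding genes with a peak. Many of those other genes lie beside RNA genes that hold the summit. With summits in RNA genes left aside, the median was 1.40 for the small subunit and 1.45 for 851 other genes.

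The summits of these peaks held 350 to 624 fragments over a local background of 291.1 to 343.5 fragments per base, as solved from the authors' fold and p. Folds are followed by 95% Poisson intervals, which cover counting error of the immunoprecipitate only. At the lowest background, the smallest fold that could enter the list was 1.16 in the Acs2-FLAG library and 1.26 in the untagged library. Of the 38 member folds, 6 lay below the untagged limit. At that background, a signal of their size would not have been called in the untagged library. The strongest member ranked 342 of 912 by fold, and 9 of the 38 genes had a peak in the stronger part of the list, at or above its median fold, beside 10.7% of all nuclear protein-coding genes. That is 16.1% of the 56 members.

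**Figure D2:**
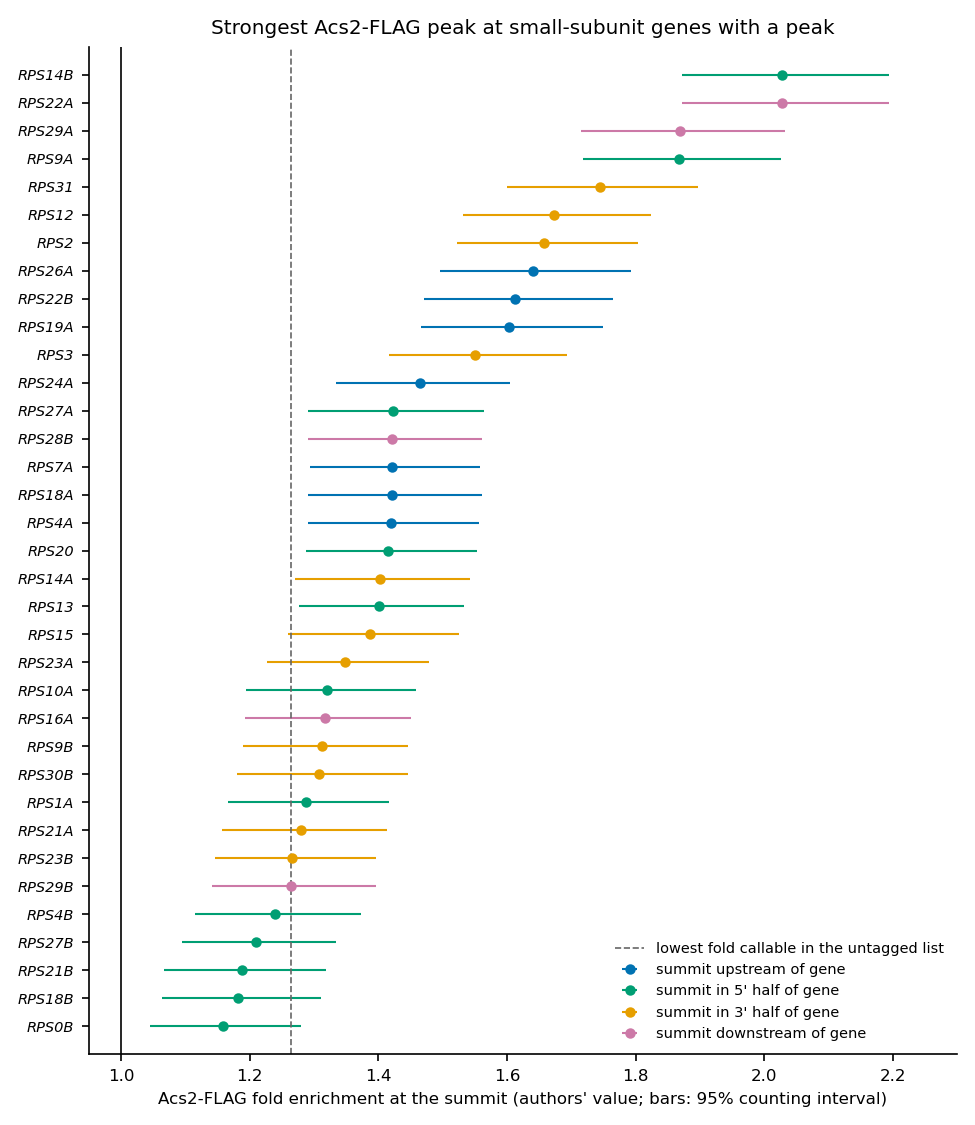
Fold enrichment at the summit of the strongest Acs2-FLAG peak for 35 small-subunit genes with a peak, from 2.03 at RPS14B to 1.16 at RPS0B. Bars are 95% counting intervals, colours give the place of the summit, the solid line is a fold of 1 and the dashed line the untagged limit of 1.26.

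The body and platform of the subunit, which carry the decoding site and much of the messenger RNA channel, are encoded by 34 of the 56 genes. An Acs2-FLAG peak met 23 of these (67.6%), with a median fold of 1.40. RPS14B (chromosome X, 73787 to 74611) encodes Rps14 of the platform, a protein known to repress its own RPS14B transcript, and had 2.03 (1.87 to 2.19). RPS22A, which encodes a body protein and ends next to RPS14B, was met by the same peak. The 38 genes thus had 37 distinct strongest peaks.

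RPS9A (chromosome XVI, 404950 to 406044), whose product acts in decoding accuracy, had 1.87 (1.72 to 2.03). RPS2, for another accuracy protein at the entry of the messenger RNA channel, had 1.66 (1.52 to 1.80). RPS26A, whose product contacts messenger RNA upstream of the start codon, had 1.64 (1.50 to 1.79), and RPS22B 1.61 (1.47 to 1.76). Their intervals overlap, so the order among RPS2, RPS26A and RPS22B is within counting error. The weakest in the body were RPS0B at 1.16 (1.04 to 1.28), RPS21B at 1.19 (1.07 to 1.32) and RPS27B at 1.21 (1.09 to 1.33). Rps0 and Rps21 lie next to each other in the subunit.

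The head and beak, which hold the channel exit and contact transfer RNA, are encoded by 22 genes. Of these, 15 had an Acs2-FLAG peak (68.2%), with a median fold of 1.42. RPS29A (chromosome XII, 898651 to 898821), for a small zinc-binding protein, had 1.87 (1.72 to 2.03), from a peak whose summit lay in a neighbouring RNA gene. RPS31 (chromosome XII, 498947 to 499405), which makes its protein as a fusion with ubiquitin, had 1.74 (1.60 to 1.90), with the summit in the gene itself. RPS12 of the beak had 1.67 (1.53 to 1.82) and RPS3, at the channel entry, 1.55 (1.42 to 1.69). RPS18B, for a protein that bridges to the large subunit, was the weakest at 1.18 (1.06 to 1.31). The head and the body thus had nearly the same share of genes with a peak and nearly the same median fold.

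All 8 single-copy genes, among them RPS2, RPS3, RPS12 and RPS31, had an Acs2-FLAG peak, and 30 of the 48 duplicated genes had one (62.5%), both beside 20.6% of all nuclear protein-coding genes. The exact interval is 63.1 to 100% for the single-copy genes and 47.4 to 76.0% for the duplicated ones. The median fold was 1.48 for the single-copy genes and 1.40 for the duplicated ones. In the large subunit, 10 of 10 single-copy genes and 47 of 66 duplicated genes had a peak. Reads from stretches that are the same in both copies cannot be placed, and the labels do not say how such reads were treated. Their part in these counts was not tested.

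Among the A copies, 18 of 24 had a peak (75.0%, interval 53.3 to 90.2), and among the B copies 12 of 24 (50.0%, 29.1 to 70.9). The median fold was 1.42 for the A copies and 1.27 for the B copies. Pair by pair, 9 pairs had a peak at both copies, 9 at the A copy alone, 3 at the B copy alone and 3 at neither. The pairs with a peak at the A copy alone included RPS1, RPS7, RPS10, RPS16, RPS19, RPS24 and RPS26. Those with a peak at the B copy alone were RPS0, RPS28 and RPS30. RPS6, whose product is a phosphoprotein, and RPS25 had a peak at neither copy.

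At RPS19, for a head protein needed for subunit maturation, RPS19A was at 1.60 (1.47 to 1.75) and RPS19B had no peak within its window. RPS26A, RPS24A and RPS7A had 1.64, 1.46 and 1.42, and their B copies had no peak. RPS10A had 1.32, RPS16A 1.32 and RPS1A 1.29. Among the B copies called alone, RPS28B, which is known to limit its own messenger RNA, had 1.42, RPS30B 1.31 and RPS0B 1.16. The RPS28B peak covered only 7.84% of that gene, with its summit 691 bases past the gene end. RPS0B lies near the calling limit of 1.16, which holds at the lowest background. Its A copy has no peak and so no fold, and the size of any difference between the copies is not known. The intervals of RPS26A, RPS19A, RPS24A and RPS7A lie above that limit. Their summits lay 733, 790, 279 and 483 bases upstream of the start in that order. The peaks of RPS19A, RPS24A and RPS7A covered 0% of the gene. Peaks also lay 271, 209 and 66 bp outside the windows of RPS26B, RPS19B and RPS7B.

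Where both copies had a peak, the A copy had the higher fold in 8 of 9 pairs, with a median ratio of A to B of 1.18 and a range of 0.691 to 1.48. The counting intervals lay apart in 4 of the 9. At RPS29 the fold was 1.87 (1.72 to 2.03) for the A copy and 1.26 (1.14 to 1.40) for the B copy, a ratio of 1.48. The A value at RPS29 comes from a peak with its summit in the RNA gene SNR34, 510 bases past the end of RPS29A. At RPS9 it was 1.87 (1.72 to 2.03) for the A copy and 1.31 (1.19 to 1.45) for the B copy, a ratio of 1.42. At RPS22 it was 2.03 for the A copy and 1.61 for the B copy, a ratio of 1.26, where the A value comes from the peak with its summit in RPS14B. RPS14 went the other way, with 1.40 (1.27 to 1.54) for the A copy and 2.03 (1.87 to 2.19) for the B copy. The pairs RPS4, RPS18, RPS21, RPS23 and RPS27 had ratios of 1.06 to 1.20 with overlapping intervals.

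The gap between the copies depended on how a peak was counted. Peaks met 14 A copies and 12 B copies in the gene body alone (13.5% of all nuclear protein-coding genes), and 18 and 14 with 1000 bp upstream (25.5%). With the summit required in the window (12.2%), they met 12 A copies and 10 B copies. In promoters alone (13.2%), peaks met 10 A copies and 3 B copies. In the stronger part of the list by fold (10.7%), they met 5 A copies and 1 B copy. With peaks limited to a −log10 q of at least 5, which 17.6% of all nuclear protein-coding genes met, 17 A copies and 5 B copies remained. In the large subunit the letters stood the other way, with a peak at 17 of 33 A copies and 30 of 33 B copies. There, 1 pair had a peak at the A copy alone and 14 at the B copy alone. The folds did not follow these counts: the median was 1.54 for the A copies and 1.43 for the B copies with a peak, and the A copy was higher in 10 of the 16 pairs with a peak at both. The letters are names given to the copies and mark no common property, and the difference between subunits was not tested.

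**Figure D3:**
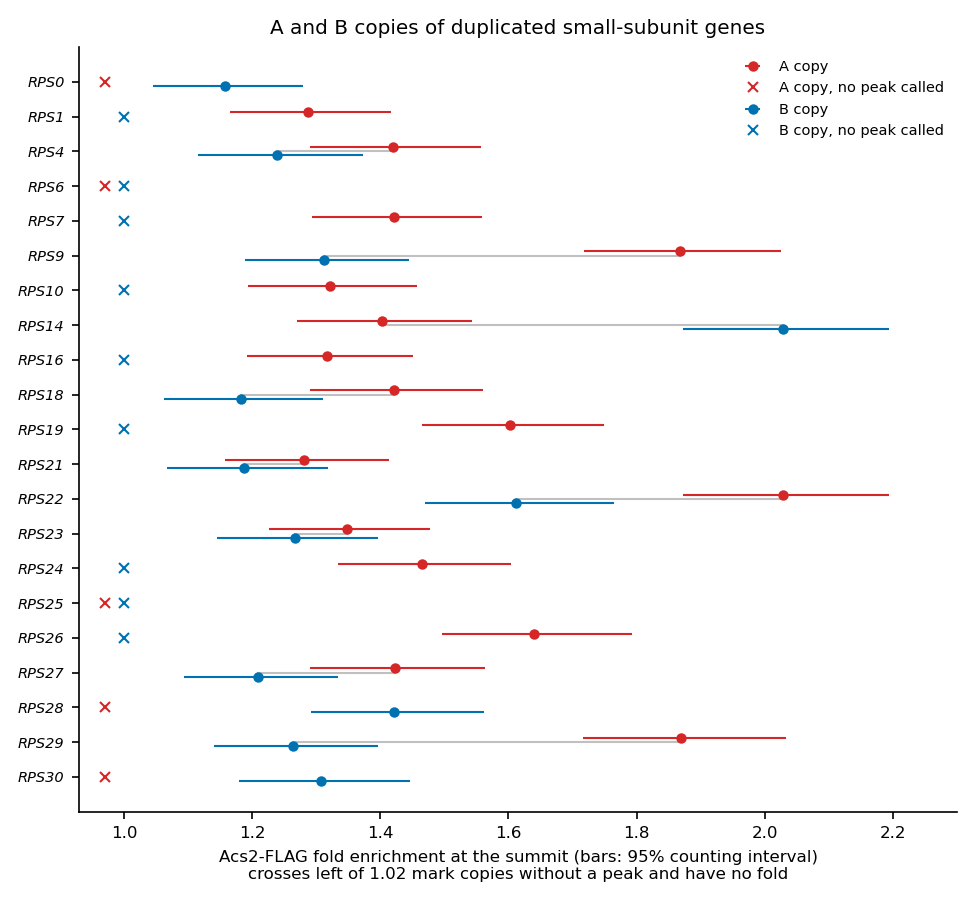
Fold enrichment at the summit for the A and B copies of 21 duplicated small-subunit genes, with 95% counting intervals. Crosses at the left edge mark copies without a peak, 5 A copies and 9 B copies. RPS14 is the only plotted pair with both copies called where the B copy stands to the right of the A copy.

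The summits lay in the member itself at 25 of the 38 genes. This is 44.6% of all 56 members, beside 7.15% of all nuclear protein-coding genes with the summit of their strongest peak inside. Among genes with a peak, the summit lay inside at 65.8% of members, 57.9% of large-subunit genes and 34.7% of all nuclear protein-coding genes. RNA genes held the summit at 2.63%, 10.5% and 28.3% of these groups in that order. Such genes were not left aside here, and they lower the last share most. Of the other 13 members with a peak, 7 had the summit upstream of the start and 6 downstream of the end. Among the 1238 nuclear protein-coding genes with a peak, 570 had it upstream and 239 downstream. The 25 inside summits were a median of 398 bases from the start and at 55.0% of the gene length, with 12 before the midpoint and 13 past it. None lay before 25.8% (RPS14B), and the farthest was at 96.3% (RPS14A). In 404 other genes with an inside summit, the median was at 59.5% of the gene length. The median fold of the 25 small-subunit genes was 1.35, against 1.39 for the 404 others.

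All 8 single-copy genes held their own summit, 6 of them past the midpoint. At RPS2 it was 711 bases from the start, which is 53 bases before the last base of the gene, and at RPS31 315 bases from the start. At RPS3 and RPS13 it was 398 and 481 bases from the start. Among the copies, 8 of the 18 A summits and 9 of the 12 B summits lay inside the gene. Peaks were between 274 and 1599 bp wide, with a median of 630.5 bp, and covered a median of 65.2% of the gene. They spanned the whole of 9 genes, among them RPS9A, RPS31, RPS12 and RPS2. Wider peaks had higher folds (Spearman rho = 0.62 across 38 genes that share a library). The rho of fold with gene length was -0.24, and neither correlation was tested. The folds of the short genes RPS29A, RPS28B and RPS22A come from summits past the end of the gene.

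At 5 of the 38 genes with a peak, the strongest peak ended before the start of the gene. The share of all nuclear protein-coding genes with such a peak was not counted. At 4 of these, RPS7A, RPS4A, RPS18A and RPS24A, the peak met no other coding gene and was 274 to 459 bp wide. The summits lay 483, 389, 321 and 279 bases upstream in that order. Their folds were 1.42, 1.42, 1.42 and 1.46. All 4 are A copies. At RPS4A a peak inside the gene had 1.37 (1.24 to 1.51), against 1.42 (1.29 to 1.56) upstream, so the choice between them is within counting error. The B copies RPS4B and RPS18B had their summits inside the gene, with 1.24 and 1.18, and RPS7B and RPS24B had no peak. The intervals of the A and B folds overlap at RPS4 and at RPS18. At RPS19A, the remaining member of the 5, the summit was 790 bases upstream.

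RPS26A and RPS22B also had their summits upstream, 733 and 174 bases before the start, in peaks that reached into the gene. Downstream summits were found at RPS22A, RPS29A, RPS16A, RPS28B and RPS29B, among others. At RPS29B the summit was 18 bases past the end of a gene of 171 bp, and at RPS16A 128 bases past the end. A second, weaker peak met 3 genes. RPS20, for a head protein, had 1.42 inside the gene and 1.31 at 404 bases upstream. RPS4A had 1.37 inside the gene beside its upstream peak. RPS14A had 1.40 near its end and 1.31 at 387 bases upstream, where the summit lay 3 bp from the small nucleolar RNA gene SNR189.

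**Figure D4:**
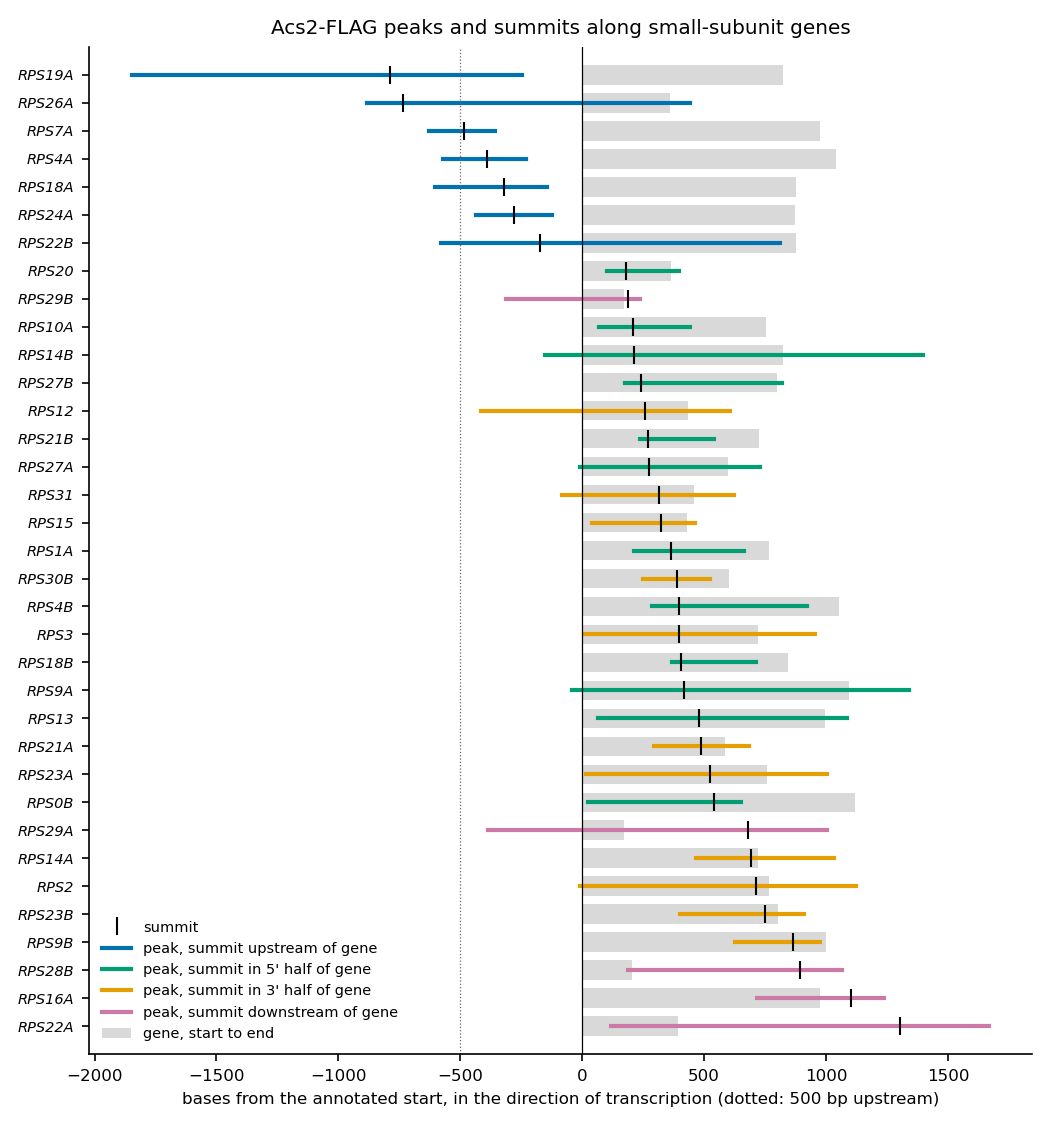
Strongest Acs2-FLAG peak (coloured line) and summit (black tick) of 35 of the 38 genes, in bases from the annotated start along the direction of transcription, with the gene as a grey bar. Genes are ordered by summit, from 790 bases upstream at RPS19A to 1302 bases downstream of the start at RPS22A. The 23 plotted summits inside genes lie between 25.8% and 96.3% of the gene length.

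RNA genes held few of these summits. No member peak met a transfer RNA gene, and the closest summit was 2114 bp from one (median 19480 bp). Among all nuclear protein-coding genes with a peak, 288 of 1238 had a strongest peak that met a transfer RNA gene. An RNA gene held the summit at 1 of the 38 small-subunit genes (2.63%), against 28.3% of all nuclear protein-coding genes with a peak and 6 of 57 large-subunit genes. At the member with the highest fold, 2.05, the summit lay 1 bp outside a small nucleolar RNA gene and was not counted.

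Small nucleolar RNA genes, whose products guide the modification of ribosomal RNA, lay in 5 member peaks. The strongest peak met such a gene at 4 of the 38 members. This was so at 72 of 1238 nuclear protein-coding genes with a peak and at 7 of 57 large-subunit genes. The summit at RPS29A fell in SNR34 (chromosome XII, 899180 to 899382), 510 bases past the end of RPS29A. At RPS22B it was 442 bp from SNR44 (chromosome XII, 856710 to 856920), which lies within RPS22B. The peaks at RPS14A met SNR65, with the summit 244 bp away, and SNR189. Among RPS14B, RPS22A and RPS29A, RPS14B thus held its own summit, RPS22A shared the RPS14B peak, and RPS29A had its summit in a small nucleolar RNA gene.

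Other coding genes lay in the strongest peak of 8 members. Besides RPS14B with RPS22A, these included RPS29A with STE23, RPS9A with YPL080C, RPS12 with RAD17, RPS26A with YGL188C-A and RPS28B with YLR264C-A.

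The untagged list had no peak in any of the 56 windows. The closest untagged peak was 4350 bp from the window of RPS27A, 4 members lay within 10 kb of one, and 14 lay on chromosomes without any. None of the 22 Acs2-FLAG peaks that share a base with an untagged peak was at a small-subunit gene.

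An Acs2-FLAG peak was missing at 18 members, which included RPS0A, RPS1B, RPS6A, RPS6B, RPS7B, RPS10B, RPS16B, RPS19B, RPS24B, RPS25A, RPS25B, RPS26B, RPS28A and RPS30A. Their median length was 789 bp, and that of the 38 with a peak 761 bp. A peak lay within 1 kb of the window at 6 of them. At RPS16B it was 29 bp away with a fold of 1.17. At RPS7B and RPS25B it was 66 and 98 bp away, with the summit in the transfer RNA genes YNCN0007W and YNCL0044W and folds of 3.38 and 3.22. At RPS19B it was 209 bp away with the summit in RPL18B and a fold of 1.61, and at RPS26B 271 bp away with the summit in the small nucleolar RNA gene SNR4 and a fold of 1.91. RPS6A was the farthest, at 26015 bp.

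Other genes of the ribosome and its making were counted the same way. All 5 stalk genes, which encode the acidic proteins of the large subunit that recruit translation factors, had a peak, led by RPP2B at 1.54 (1.40 to 1.69) and RPP0 at 1.51 (1.38 to 1.64). ASC1, for the scaffold protein on the head of the small subunit, had 1.44 (1.30 to 1.58), and STM1, for a ribosome-binding protein, had 1.21 (1.10 to 1.33). In the large subunit, RPL36A had 3.26 with the summit in SNR11, and RPL9B 3.19. The 57 large-subunit genes had a median fold of 1.45.

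Assembly factors of the small subunit had a peak at 4 of 19 (21.1%), near the 20.6% of all nuclear protein-coding genes, with NOC4 at 2.96 in a peak that met a transfer RNA gene and RIO2 at 1.47. Genes for the mitochondrial small subunit had 8 of 31 (25.8%), led by RSM26 at 3.74 and MRPS8 at 3.66, both with summits in transfer RNA genes. Regulators of ribosomal protein genes had 1 of 13, EPL1, a subunit of the Esa1 complex, at 1.30 (1.18 to 1.43). RAP1, FHL1, IFH1 and SFP1 had none.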

How the data were processed

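The deposited files are narrowPeak lists, 1 per immunoprecipitate. Per the file headers, each compares an immunoprecipitate with its own strain's input, taken here as the background. Trimmomatic, BWA, Picard and MACS2 and the build R64 are named in the submitters' processing notes, with no settings, read totals or duplicate handling given in the sources used here. The authors' columns are the fold (a ratio) at the summit, its −log10 p and −log10 q, a deposited score equal to 10 times the −log10 q rounded down, which was not used further, and the summit position.

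Chromosome names were checked on transfer RNA genes: at least 70% per chromosome met a peak under their own name and at most 30.8% under another. Genes came from a RefSeq R64 table of 6477 genes, and strand from the systematic name. Each gene took its strongest peak. The fragment count was solved from fold and p (whole within 0.05 for 907 of 912 Acs2-FLAG and 30 of 34 untagged peaks), and the lowest background, 291.1 and 198.4 fragments per base, was taken as depth. Overlap and solving were checked on simulated data.

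Members, lists and named genes (the 10 highest and 4 lowest members, all without a peak, at RNA genes or with several peaks, all unequal pairs, the 4 pairs with the largest ratios and the 2 strongest of each other list) were chosen with earlier results of these data known. Planned promoter motif, intron and protein comparisons were not run, since no sequence was used. Some members and a neighbouring gene enter the counts and medians but are not reported here by name or plotted. Figures were drawn with matplotlib 3.10.9, and values computed with scipy 1.17.1, pandas 2.3.3 and numpy 2.4.6 under Python 3.11.15.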

Additional observations from a re-analysis of the deposited data

How the results depend on the processing

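Of 54 comparisons of 8 counts or medians with an alternative setting, 39 stayed within 1.5 times the count or within the typical counting error of the median fold. With promoters alone, 17 members had a peak (13.2% of all nuclear protein-coding genes), with a median fold of 1.60, 2 pairs called at both copies, 1 of them higher at A, and 6 summits inside the gene. With the stronger part of each list by fold, 9 members had a peak (10.7% of all nuclear protein-coding genes), with a median of 1.87, 0 pairs called at both copies and so 0 higher at A, 6 pairs called at a single copy, and 5 summits inside. With a −log10 q of at least 5, 30 members had a peak (17.6% of all nuclear protein-coding genes). In that setting 3 pairs were called at both copies, and 2 of these were higher at A. An RNA gene held the summit at 2 members with 1000 bp upstream and at 0 when the summit had to lie in the window. The number of members with a peak was 34 in gene bodies (13.5% of all nuclear protein-coding genes), 30 by summit (12.2%) and 40 with 1000 bp (25.5%). Members with an untagged peak stayed at 0 in all 6 settings tried, which count among the 39. The setting with 1000 bp upstream could not reach an untagged peak, since the closest lay 4350 bp from a window. The others use a part of the same windows or of the same untagged peaks, so their 0 was fixed in advance. Leaving out Acs2-FLAG peaks that share a base with an untagged peak kept 38 members. That count also stands among the 39 and was fixed, since no member peak was shared. No paired analysis was possible because each group has 1 library. At the lowest background, depth limits calls to folds of about 1.16 in the Acs2-FLAG list and 1.26 in the untagged list. At higher local background smaller folds were called, down to 1.15 in the Acs2-FLAG list and 1.03 in the untagged list.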
